A study of Homo sapiens with 18 samples.

Results

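The genes described here are the zinc finger genes whose symbols run from ZNF500 to ZNF899. They were chosen by name alone, as every gene of the count table whose symbol is ZNF followed by exactly 3 digits in that range and at most one letter, which gave 221 of 23622 genes. Of these, 206 had enough counts to be tested, and 15 did not, among them ZNF582, ZNF614 and ZNF528, with 10 to 62 reads in total over all libraries. The numbers are catalogue numbers and carry no functional meaning, so the set is a broad sample of the largest family of human transcription factors.

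Classical zinc fingers are short loops held by a zinc ion, and arrays of them read DNA sequence. Many proteins of the family carry a KRAB domain at the amino-terminal end, which recruits the co-repressor TRIM28 and with it the methyltransferase SETDB1, HP1 proteins and DNA methyltransferases to silence transposable elements and other loci. The genes arose by repeated duplication, and many lie in clusters on chromosome 19. In translated coding sequences from the GENCODE 44 annotation, 135 of the 209 protein-coding members held a KRAB A-box pattern and 74 did not, and the other 12 members were pseudogenes. One coding member, ZNF500, held a SCAN domain pattern. The number of fingers found by pattern ranged from 0 to 31, with a median of 12 in KRAB members and 7 in coding members without KRAB. Chromosome 19 held 118 of the 221 members and 96 of the 135 KRAB members.

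The study asked how a cisplatin-resistant cell line differs from its parent and how each responds to the drug. Both are established human ovarian carcinoma lines, A2780 and its derivative A2780cis (Acis), which was selected with cisplatin and kept in 1 µM cisplatin every 3 passages. RNA was sequenced from 4 groups of 3 libraries, namely A2780 control, A2780 cisplatin, Acis control and Acis cisplatin, with treatment at 200 µM for 3 h, and open chromatin was mapped by ATAC-seq in the same 4 conditions. Acis is a single resistant derivative, so a difference between the lines holds for this pair alone. By the study's methods the cells of each condition were seeded as triplicate wells, so p-values measure the spread between wells of a line.

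The 12 libraries held 4130644 to 5072216 counted reads, and counts are given scaled to the mean library size with TMM factors of 0.965 to 1.05. The culture markers read here did not give a simple epithelial picture. Vimentin (VIM) averaged 1783 to 2006 normalized counts in the 4 groups, whereas EPCAM averaged at most 4.16. PAX2, a urogenital marker, fell from a mean of 1065 in A2780 control to 0 in Acis control, while the keratin KRT18 was at 25.5 and 143. COL1A1, a collagen of mesenchymal cells and the only marker of other cells read here, moved with the line as well (787.5 to 902 in A2780 control libraries and 8.50 to 22.4 in Acis control libraries), and its part in the results below was not tested. PAX8, WT1, CDH1, PTPRC and PECAM1 were not analysed here.

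Most zinc finger genes were expressed at modest levels. The median tested member averaged 148 normalized counts over the 12 libraries, against 161 for all tested genes, and members ranged from 5.73 to 1285. KRAB members had a median of 137 and coding members without KRAB 281. Per kilobase of annotated exon, a scale on which different genes can be compared, the highest members were ZNF767P (257 normalized counts per kb), ZNF593 (233), ZNF598 (184), ZNF768 (171) and ZNF622 (165). ZNF593 and ZNF622 are factors of large ribosomal subunit maturation and ZNF598 is a ubiquitin ligase that senses collided ribosomes, so 3 of these 5 genes serve the ribosome and do not carry KRAB. ZNF767P is a transcribed pseudogene. The members took 1.01% to 1.02% of the counts in A2780 control libraries, 0.880% to 0.902% in Acis control libraries, and 0.908% to 0.928% in Acis cisplatin libraries.

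The largest contrast was between the untreated lines. In Acis control, 110 of the 206 tested members were lower than in A2780 control and 34 were higher (adjusted p below 0.05, edgeR's quasi-likelihood test). The background over all 15760 tested genes was 30.6% lower and 28.2% higher, compared with 53.4% and 16.5% of the members. In either direction, 58.9% of all tested genes and 69.9% of members were called. At a change of at least 2-fold, 40 members were lower and 4 higher (19.4% and 1.94%), against 12.2% and 6.99% of all tested genes. The median log2 fold change was -0.26 for members and -0.01 for all tested genes. The 5 genes near 0 in Acis stay far below the member median at their bounds, so placing them there could not move it. The other 230 tested ZNF genes, with numbers outside the range, lay between the members and the background, with 91 lower, 38 higher and a median of -0.11.

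KRAB members leaned further to one side. Of 123 tested KRAB members, 67 were lower and 15 higher, with a median of -0.28, and 26 fell at least 2-fold while none rose as far. Of 73 coding members without KRAB, 34 were lower and 19 higher, with a median of -0.13, and this class held all 4 members that were at least 2-fold higher. Of the 10 tested pseudogenes, 9 were lower. No test compared the classes. KRAB members also had a longer median span (29653 bases, against 16863), though only 2 of the 14 members over 100 kb carry KRAB. In addition, 11 of the KRAB members lie between 20 and 25 Mb of chromosome 19, where all 13 tested members were lower, as described below.

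Several zinc finger genes expressed in A2780 had few or no reads in Acis. ZNF826P, a transcribed pseudogene on chromosome 19 (ENSG00000231205, chr19:20397334-20409959), had 176, 168 and 180 normalized counts in the A2780 control libraries and 0 in all 6 Acis libraries. With 3 counts as the limit that a count of 0 allows over the 3 libraries, the pseudogene was lower in Acis by at least 161-fold in untreated and at least 160-fold in treated cells. ZNF738 (ENSG00000172687, chr19:21358930-21388582), a KRAB gene with 5 fingers, had 96.05, 82.7 and 102 normalized counts in A2780 control and likewise 0 in every Acis library, at least 85.9-fold lower in untreated cells. ZNF841 (ENSG00000197608, chr19:52064465-52095765), a KRAB gene with 20 fingers, had 78.3, 56.7 and 84.3 normalized counts in A2780 control and 0 in every Acis library, at least 66.9-fold lower untreated.

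For these 3 genes the groups did not overlap in either treatment, which the rule for naming them required for the untreated lines alone. ZNF521 (ENSG00000198795, chr18:25061924-25352190), a 27-finger cofactor known from stem and progenitor cells, had 223, 229 and 258 normalized counts in A2780 control and 0, 2.13 and 0 in Acis control. The raw counts were 719 and 2, a 325-fold ratio with an exact 95% counting interval of 89.6 to 2689. ZNF737 (ENSG00000237440, chr19:20535825-20565809), a KRAB gene with 13 fingers, had 135, 123 and 141 normalized counts in A2780 control and 1.06, 0 and 0 in Acis control. It had 405 raw counts in A2780 control and 1 in Acis control, a 366-fold ratio (interval 65.3 to 14500). Under cisplatin the ratios were 402 (71.7 to 15910) for ZNF521 and 86.4 (29.2 to 422) for ZNF737. These intervals cover counting error only. Reads that map to several places were left out of the counts, so close paralogs may be undercounted, and fewer expressing cells cannot be told apart from less RNA per cell in such bulk libraries.

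The next genes were lower but still detected in Acis. ZNF516 (ENSG00000101493, chr18:76357682-76495242), a transcription factor known from brown fat, had 991, 976 and 938 normalized counts in A2780 control and 61.6, 50.1 and 38.8 in Acis control (log2 fold change -4.26 ± 0.09 SE, adjusted p = 1.85e-24). ZNF835, a 14-finger gene without KRAB, had a mean of 105 ± 4.11 (SD, n = 3) in A2780 control and at most 2.28 in any Acis control library. ZNF610, a KRAB gene, averaged 29.3 and 2.53 (log2 fold change -3.48 ± 0.41). ZNF781, annotated as a transcribed pseudogene, averaged 28.0 and 1.80 (-3.85 ± 0.39). ZNF730, a KRAB gene, had 154, 169 and 152 in A2780 control and 31.9, 28.8 and 43.3 in Acis control (-2.20 ± 0.14, adjusted p = 7.20e-14). In each of these 5 genes the highest Acis control library was below the lowest A2780 control library, as the rule for naming them required.

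**Figure D1:**
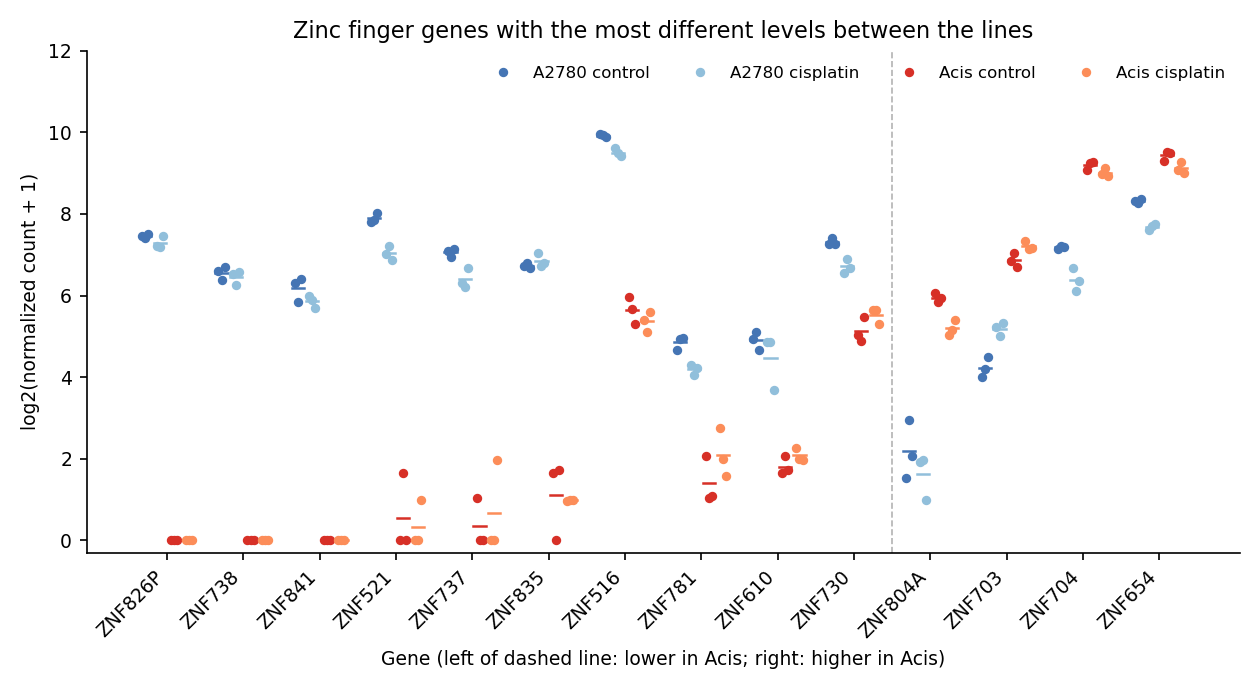
Each point is one library (3 per group) and each short line the mean of the log2 values of its group, on an axis of log2(normalized count + 1), for the 10 members with the largest fall and the 4 with the largest rise in Acis control among those called. ZNF826P, ZNF738 and ZNF841 sit at 0 in all 6 Acis libraries, while ZNF704 and ZNF654 are above A2780 in all of them.

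Fewer members were higher in Acis, and the 4 that rose at least 2-fold carry no KRAB. ZNF804A (ENSG00000170396, chr2:184598529-184939492), a gene at a schizophrenia risk locus, had 1.87, 6.73 and 3.20 normalized counts in A2780 control and 65.9, 56.5 and 60.4 in Acis control (log2 fold change 3.91 ± 0.27 SE, adjusted p = 8.36e-13). ZNF703, a co-repressor amplified in luminal breast cancer, rose from a mean of 17.9 ± 3.25 to 116 ± 13.7 (SD, n = 3; log2 fold change 2.70 ± 0.16, adjusted p = 3.22e-14). ZNF704 rose from 139, 148 and 146 to 536, 610 and 622.5 (2.03 ± 0.08, adjusted p = 4.90e-18). ZNF654 rose from a mean of 317 to 698 (1.14 ± 0.07). ZNF778, ZNF684, ZNF764, ZNF524, ZNF608 and ZNF584 rose by less than 2-fold, with log2 fold changes of 0.66 to 0.79.

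The line differences were mostly present in cisplatin-treated cells too. In Acis cisplatin against A2780 cisplatin, 85 members were lower and 47 higher, against backgrounds of 31.2% and 31.8% (64.1% of members and 63% of all genes in either direction), and 27 were lower and 4 higher by at least 2-fold, against 11.9% and 7.28%. Of the 40 members at least 2-fold lower untreated, 26 were also at least 2-fold lower under cisplatin, and ZNF804A, ZNF703, ZNF704 and ZNF654 were at least 2-fold higher in both. The median narrowed from -0.26 to -0.13. ZNF730 narrowed from -2.20 to -1.20 and ZNF681 from -1.87 to -0.89, whereas ZNF516 stayed at -4.16 and ZNF804A at 3.92. The 2 comparisons use different libraries.

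Along chromosome 19, one stretch stood apart. When the chromosome was divided into windows of 5 Mb, a division added after the values had been seen, all 13 tested members between 20 and 25 Mb were lower in Acis control, 11 of them by at least 2-fold, with a median log2 fold change of -1.56. The 13 comprised ZNF682, ZNF826P, ZNF737, ZNF626, ZNF714, ZNF708, ZNF738, ZNF849P, ZNF730, ZNF724, ZNF675, ZNF681 and ZNF726, of which 11 carry KRAB. The smallest falls were those of ZNF724 (-0.68) and ZNF675 (-0.76). Other genes of the window moved with them, since 20 of its 23 other tested genes were lower, including all 9 ZNF genes with numbers outside the range and 11 of 14 genes that are not ZNF genes. In the other windows that held members, 33.3% to 58.8% of members were lower, apart from the first 5 Mb, where both tested members were. Without the 20 to 25 Mb window, 97 of 193 members were lower (50.3%) and 34 higher, with a median of -0.21.

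Runs of neighboring members elsewhere differed from one another. Members whose starts lay within 250 kb of the next formed 8 runs of at least 5, which together held 87 members. The run at chr19:51927147-53037898, with 17 KRAB members among its 18 and with ZNF841 and ZNF610 in it, had 9 of 14 tested members lower and 1 higher in Acis control. The run at chr19:57240632-58003349, all 18 members KRAB, had 9 of 17 lower and 2 higher. The run at chr19:55476617-55645623 held 7 members without KRAB (among them ZNF628, ZNF524, ZNF784 and ZNF581), of which 4 were lower and 3 higher. At chr16:30407414-30787205, a run that includes ZNF764, ZNF768 and ZNF689, 3 of 6 tested members were higher and 1 lower.

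Most members had open chromatin at their start. Within 500 bases of the annotated start, an ATAC-seq peak was listed for 167 of the 221 members in untreated A2780 cells (75.6%) and 173 after cisplatin (78.3%). In Acis the numbers were 160 untreated (72.4%) and 162 treated (73.3%). Among 15708 tested genes with a position, the shares were 65.6% and 66.1% in A2780 and 59.3% and 62.9% in Acis. All 4 lists had a start-site peak for 154 members (69.7%, against 56.3% of these tested genes) and none of them for 45 (20.4%, against 29.8%). Among the 206 tested members these shares were 73.8% and 16%. Each condition has a single list without replicates, so these shares carry no error, and the lists differ in size (34979 peaks in A2780 control and 24485 in Acis control).

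A group of 9 members, 4.07% of the 221 against 2.88% of all tested genes, had a start-site peak in both A2780 lists and in neither Acis list. They were ZNF521, ZNF516, ZNF737, ZNF738, ZNF841, ZNF610, ZNF835, ZNF619 and ZNF620. All 9 were lower in Acis control, 8 of them by at least 2-fold, whereas 61.8% of the 453 tested genes with the same pattern were lower. Fold enrichment over local background at the A2780 control peak was 19.03 for ZNF738, 18.9 for ZNF835, 18.1 for ZNF737, 17.4 for ZNF841, 14.97 for ZNF521 and 13.8 for ZNF610, and only 4.83 for ZNF516. ZNF619 and ZNF620 share one peak with a fold enrichment of 7.78. The RefSeq promoter of ZNF620 lies elsewhere (chr3:40505789-40506088), and a listed peak overlaps it in both A2780 control and Acis control. ZNF620 fell from a mean of 117 to 39.0 (log2 fold change -1.59 ± 0.14 SE), and ZNF619 from 56.1 to 42.1 (-0.41 ± 0.15, adjusted p = 0.0285). Counting a peak at the start of any annotated transcript removed ZNF516 and ZNF620 from the 9 and added ZNF532, ZNF701 and ZNF746. With the top 20000 peaks of each list, ZNF619 and ZNF620 left the group and ZNF792 entered it.

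A missing start-site peak did not accompany every low gene. Of the 40 members at least 2-fold lower in Acis control, 8 had the A2780-only pattern, 21 had a peak in all 4 lists and 10 had none. ZNF730, ZNF626 and ZNF681 were among those with a peak in every list. At ZNF626 the fold enrichment was 20.4 in A2780 control and 22.4 in Acis control, while its mean normalized count was 203 and 50.1 (log2 fold change -2.02 ± 0.11 SE). ZNF826P and ZNF781 had no start-site peak in any list. In the reverse direction, the pattern of both Acis lists and neither A2780 list was seen for ZNF747 alone, a gene with too few counts to be tested.

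**Figure D2:**
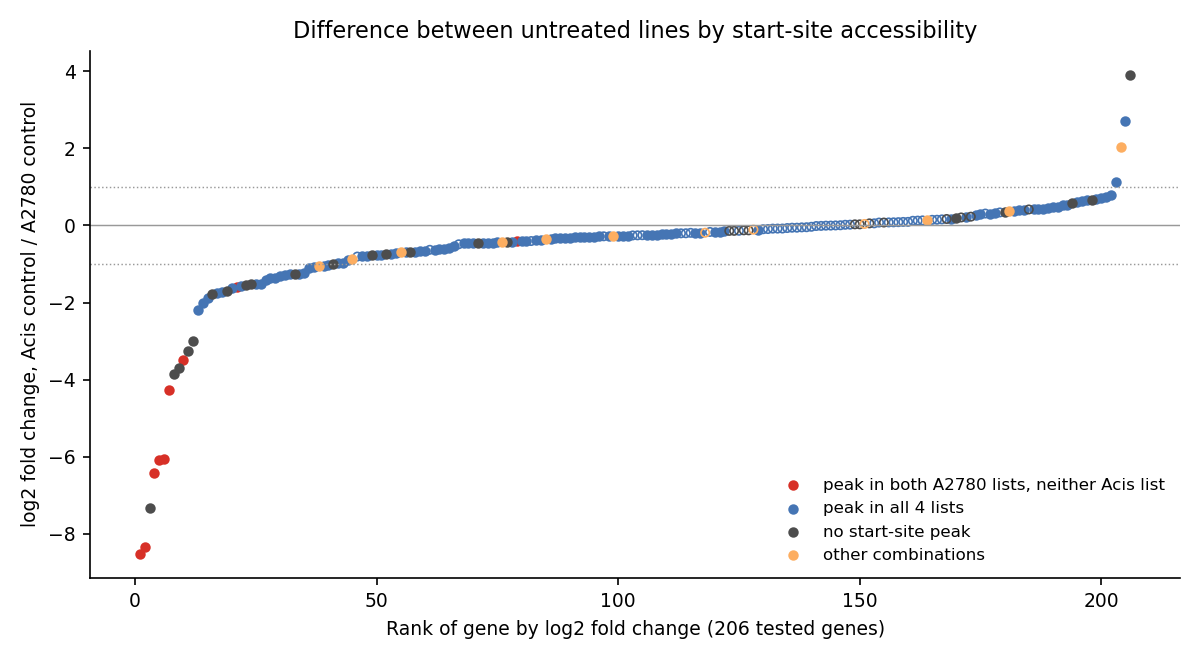
Each point is one of the 206 tested members, ranked by its log2 fold change between Acis control and A2780 control, with filled points at adjusted p below 0.05, open points above it, and dotted lines at 2-fold. Colors give the start-site peak pattern, and the 5 genes near 0 in Acis are drawn at their count ratio or bound. Members with a peak in the A2780 lists alone lie mostly at the far left, while members with a peak in all 4 lists cover nearly the whole range.

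The promoters of 5 of these genes are printed because their calls differ: ZNF841, ZNF737 and ZNF835 had a peak in A2780 alone and few or no reads in Acis, and ZNF730 and ZNF626 had fewer reads with a peak in every list. In A2780 control a listed peak overlaps each of the 5 printed windows, and in Acis control those of ZNF730 and ZNF626. For ZNF730 the RefSeq start differs from the GENCODE start used for the peak counts, so its printed window is not the one behind those counts. Each runs 5′ to 3′ on the strand of its gene, from 250 bases before to 50 after the RefSeq start (build GRCh38.p14). Capitals mark matches to CCGGAAG, the core bound by ETS factors, and to GGGCGG, the GC box bound by SP and KLF factors, on either strand. The positions are chr19:52095716-52096015, chr19:20565732-20566031 and chr19:56671708-56672007 for the first 3, all on the minus strand, then chr19:23116775-23117074 on the plus strand for ZNF730 and chr19:20661522-20661821 on the minus strand for ZNF626.
ZNF841: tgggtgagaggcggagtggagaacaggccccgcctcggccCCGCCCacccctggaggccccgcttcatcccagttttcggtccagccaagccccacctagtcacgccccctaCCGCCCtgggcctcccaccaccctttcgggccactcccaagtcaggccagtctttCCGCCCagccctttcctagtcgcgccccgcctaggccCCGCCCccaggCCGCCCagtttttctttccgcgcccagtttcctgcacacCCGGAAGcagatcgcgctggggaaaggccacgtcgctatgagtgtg
ZNF737: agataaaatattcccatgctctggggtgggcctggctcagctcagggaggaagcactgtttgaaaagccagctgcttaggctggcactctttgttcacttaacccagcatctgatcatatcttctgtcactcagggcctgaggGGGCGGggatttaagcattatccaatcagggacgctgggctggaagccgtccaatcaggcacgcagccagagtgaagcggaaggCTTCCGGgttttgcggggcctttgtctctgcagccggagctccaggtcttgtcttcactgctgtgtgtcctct
ZNF835: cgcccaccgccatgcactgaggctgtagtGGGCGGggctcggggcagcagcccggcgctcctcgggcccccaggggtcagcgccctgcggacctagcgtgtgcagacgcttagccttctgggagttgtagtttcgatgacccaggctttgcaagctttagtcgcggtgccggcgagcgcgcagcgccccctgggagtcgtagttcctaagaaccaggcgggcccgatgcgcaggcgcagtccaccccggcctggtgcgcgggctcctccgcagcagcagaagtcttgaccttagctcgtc
ZNF730: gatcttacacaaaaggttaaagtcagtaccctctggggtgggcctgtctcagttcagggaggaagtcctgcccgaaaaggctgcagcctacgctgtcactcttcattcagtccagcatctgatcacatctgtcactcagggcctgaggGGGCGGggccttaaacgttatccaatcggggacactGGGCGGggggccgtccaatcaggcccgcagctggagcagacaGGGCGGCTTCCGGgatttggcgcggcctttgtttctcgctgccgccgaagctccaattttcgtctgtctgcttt
ZNF626: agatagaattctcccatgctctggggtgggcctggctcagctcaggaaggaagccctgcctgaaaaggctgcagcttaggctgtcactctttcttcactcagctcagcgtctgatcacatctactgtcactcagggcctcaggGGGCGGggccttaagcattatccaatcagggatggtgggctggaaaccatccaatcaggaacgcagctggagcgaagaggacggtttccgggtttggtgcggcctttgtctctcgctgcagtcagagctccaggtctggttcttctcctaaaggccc

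ZNF737, with a peak in A2780 alone, and ZNF626, with one in every list, are neighbors with similar promoters. Their 300 bases were identical at 82.3% of aligned positions, and ZNF730 was 74.4% identical to ZNF626 and 71.9% to ZNF737. ZNF841 and ZNF835 were 45.3% to 50.5% identical to the rest. ZNF737 and ZNF626 each held 8 CG dinucleotides, ZNF730 16, ZNF841 22 and ZNF835 29, against a median of 14 in all 35116 RefSeq promoters. Reads were aligned with up to 10 places reported, so the calls at such similar sequences may share reads.

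The promoters of the members were also read for features that the choice of genes did not use. RefSeq promoters were matched for 178 members and not for 43. The ETS core was found in 72 of the 178 (40.4%), against 10.3% of all promoters, 19% of those of tested genes outside the set and 21.6% of those with at least 20 CG dinucleotides. The other ZNF genes had it in 39.5%. Among KRAB members the share was 47.5%, and among those without KRAB 25.9%. The GC box was in 66.3% of members, against 45% of all promoters but 70.5% of those of tested genes outside the set. The TATA box letters TATAAA were in 3.93% of members and 11.5% of all promoters. Among promoters of tested genes outside the set the share was 5.57%, and 3.15% among those with at least 20 CG dinucleotides. The members lay between these 2 shares. A match describes letters in this window and is not a binding site.

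In A2780, 3 h of cisplatin lowered more members than it raised. After cisplatin, 72 members were lower and 41 higher, or 35% and 19.9%, against backgrounds of 28.2% and 21.2% (54.9% of members and 49.5% of all genes in either direction). With total counts as library size this split turned to 53 lower and 63 higher, and the member median moved from -0.10 to 0.02 as the median of all genes shifted by 0.115 from -0.01 to 0.10, so the direction for the family as a whole depends on the scaling. Relative to all genes, the members lay lower under both scalings. With TMM factors, 29.6% of the other 230 tested ZNF genes were lower and 21.3% higher, with a median of -0.06. At 2-fold, 5 members were higher and none lower, 2.43% and 0% against 4.14% and 1.48%.

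KRAB and other coding members fell in A2780 at like rates, 43 of 123 (35%) and 26 of 73 (35.6%). Fewer KRAB members rose, 19 (15.4%) against 22 (30.1%), and the medians were -0.11 and -0.01. The 6 largest falls were in genes of both kinds and in a pseudogene. ZNF681, a KRAB gene, fell from 245, 237 and 255 normalized counts to 142, 113 and 132 (log2 fold change -0.92 ± 0.09 SE, adjusted p = 4.67e-09). ZNF678 fell from a mean of 154 to 83.8 (-0.88 ± 0.11), ZNF767P from 223 to 121 (-0.88 ± 0.08) and ZNF780B, a KRAB gene with 21 fingers, from 348 to 196 (-0.83 ± 0.07). ZNF521 fell from 237 to 131 (-0.85 ± 0.09). ZNF827, which recruits the NuRD complex to telomeres, fell from 395, 374 and 376 to 246, 202 and 205 (-0.81 ± 0.07, adjusted p = 1.02e-09). All 6 genes had non-overlapping groups, which the rule for naming them required.

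The 41 members that rose in A2780 had control means of 6.24 to 582 normalized counts, with a median of 111, and the 5 that rose at least 2-fold were among the low ones. ZNF596, a KRAB gene, rose from 41.0, 47.1 and 40.55 to 98.3, 92.8 and 99.1 normalized counts (log2 fold change 1.17 ± 0.15 SE, adjusted p = 2.09e-07). ZNF547, also KRAB, rose from a mean of 17.7 to 37.1 (1.04 ± 0.22). ZNF703 rose from 17.9 to 35.6 (1.00 ± 0.21, adjusted p = 0.000307). ZNF843 rose from 11.1 to 23.4 (1.06 ± 0.27), a call that DESeq2 did not make (adjusted p = 0.0580). ZNF750, an epidermal differentiation factor, rose from 6.24 to 14.1 (1.16 ± 0.35, adjusted p = 0.00693) at the lowest level of the 5. ZNF878 and ZNF699, both KRAB, rose by 0.82 and 0.76 on the log2 scale.

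In Acis, a smaller share of members passed the test (21.4%, against 54.9% in A2780), and which direction had more calls depended on the setting. After cisplatin, 24 members were higher and 20 lower, or 11.7% and 9.71%, against backgrounds of 9.35% and 12.4% (21.8% of all genes in either direction). The split was 42 and 15 with total counts as library size, 21 and 23 with DESeq2 size factors, and 11 and 14 with DESeq2. Only ZNF774 and ZNF878 rose at least 2-fold (0.971% of members against 1.64%), and no member fell as far, against 0.374%. Of the other 230 tested ZNF genes, 17% were called higher and 5.65% lower with TMM factors. Of KRAB members 15 were higher and 5 lower, and of coding members without KRAB 9 were higher and 15 lower. Of the 20 lower members, 9 span over 100 kb. KRAB members make up 2 of the 14 members of that span, and 0 of these 2 were called lower. The part of span in this split was not tested.

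ZNF878 rose from 18.1, 15.99 and 17.1 normalized counts to 31.7, 39.4 and 37.3 in Acis (log2 fold change 1.08 ± 0.21 SE, adjusted p = 0.000286), close to its rise in A2780. ZNF774 rose from a mean of 9.07 to 22.8 (1.32 ± 0.31, adjusted p = 0.00278). ZNF599 (0.65 ± 0.11), ZNF606 (0.52 ± 0.10) and ZNF627 (0.51 ± 0.10), all KRAB genes, rose as well. So did ZNF784 (0.53 ± 0.13), whose call was lost without Acis cisplatin replicate 3 (adjusted p = 0.0616). The genes that fell in Acis were mostly without KRAB. ZNF609, a regulator of neural progenitors and host of a circular RNA, fell from 816, 766 and 803 to 478, 461 and 488 (-0.74 ± 0.05, adjusted p = 1.31e-11), and in A2780 from a mean of 1228 to 780 (-0.65 ± 0.04). ZNF710 fell by 0.77, ZNF804A by 0.77, ZNF827 by 0.54 and ZNF628 by 0.47 on the log2 scale. ZNF624, a KRAB gene, fell by 0.55, a call lost without Acis cisplatin replicate 3 (adjusted p = 0.0585).

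The test of the difference between the responses, cisplatin effect in Acis minus that in A2780, was positive for 45 members and negative for 9 (21.8% and 4.37%), against 13.4% and 5.48% of all tested genes (26.2% and 18.9% in either direction). No member was called with a difference of 2-fold, against 0.66% and 0.698% of all genes. With total counts as library size the split was 30 and 17. All 45 positive members had a negative estimate in A2780, and 41 were called lower there, whereas in Acis 4 were called lower and 7 higher. Of the 45, 31 were KRAB members. The median difference was 0.18 for KRAB members, 0.02 for coding members without KRAB and 0.03 for all tested genes. The other 230 tested ZNF genes were close to the members, with medians of 0.14 and 0.15. Of these other genes, 19.1% were called positive and 6.96% negative. The difference is built from the same libraries as the responses of each line, so these counts are no independent evidence.

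ZNF730 had the largest positive difference, falling by 0.60 in A2780 with an estimate of 0.40 in Acis (difference 1.00 ± 0.21 SE, adjusted p = 0.00124). ZNF681 fell by 0.92 in A2780 and had 67.1 ± 3.99 and 69.9 ± 17.3 normalized counts (SD, n = 3) in Acis control and cisplatin (difference 0.98 ± 0.18). In ZNF519 and ZNF606 the direction turned. ZNF519 fell by 0.44 in A2780 and rose by 0.55 in Acis (difference 0.99 ± 0.20), and ZNF606 fell by 0.31 and rose by 0.52 (0.83 ± 0.13, adjusted p = 8.10e-05). The Acis groups of ZNF519 overlapped, with 47.8, 65.0 and 91.2 normalized counts in control and 108, 112 and 74.6 under cisplatin. ZNF891, ZNF627 and ZNF805 were also called lower in A2780 and higher in Acis. ZNF767P and ZNF675 had differences of 0.77 ± 0.12 and 0.76 ± 0.15.

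Of the 9 members with a negative difference, 6 were without KRAB and 8 rose in A2780. ZNF764 rose by 0.32 in A2780 and fell by 0.24 in Acis (difference -0.56 ± 0.13 SE, adjusted p = 0.00294), and its neighbor ZNF689 rose by 0.53 in A2780 with an estimate of 0.02 in Acis (-0.51 ± 0.07). These 2 carry KRAB. ZNF574 rose in both lines, with means of 345 and 549 in A2780 and of 353 and 412 in Acis (difference -0.45 ± 0.08). ZNF668, ZNF581 and ZNF830 had differences of -0.41, -0.38 and -0.37. All 6 tested members of the chromosome 16 run that holds ZNF764 and ZNF689 had negative estimates of this difference, and 5 of them rose in A2780. In the run at chr19:51927147-53037898, all 14 tested members had positive estimates, 2 of them called. Among the 14, ZNF841 had 0 counts in both Acis groups, so the sign of its estimate came from its A2780 change alone. These 2 runs are given because their signs agree. The run at chr19:36445119-37005037 had 5 of 5 positive. Signs were mixed at chr19:37181579-37817300 (5 negative, 5 positive) and chr19:57240632-58003349 (7 and 10). Of all tested members 33.5% had negative estimates, against 45.8% of all tested genes.

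**Figure D3:**
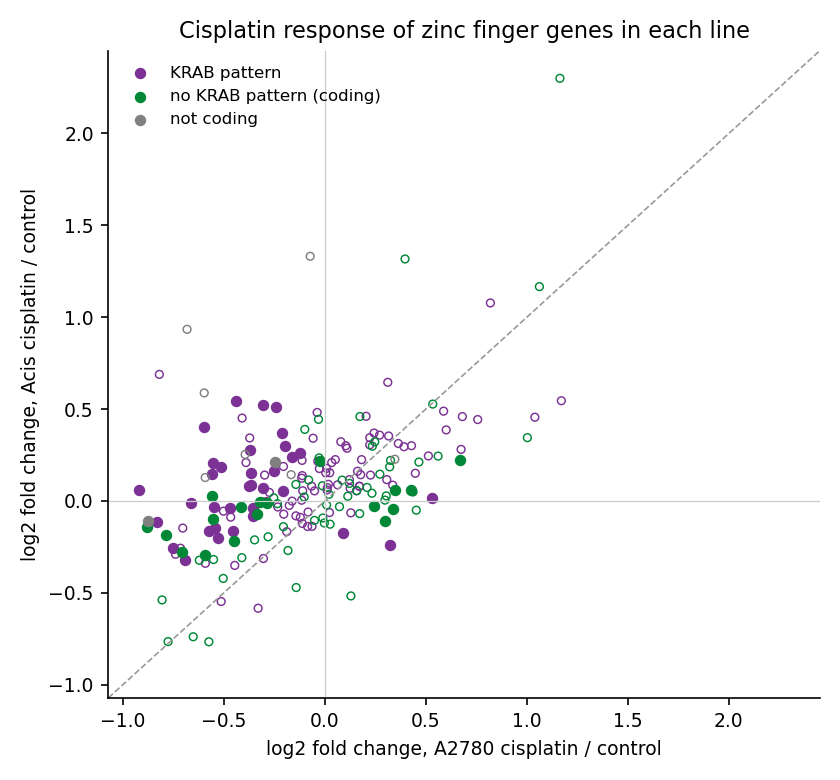
Each point is a tested member, with its log2 fold change after cisplatin in A2780 on the x axis and in Acis on the y axis, filled where the difference between the lines passed an adjusted p of 0.05. The 5 genes near 0 in Acis are left out, and the dashed line marks equal responses. Most filled points lie above the line with a negative value in A2780, and the count of filled points above and below it was 45 and 9 (30 and 17 with total counts as library size).

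The change in A2780 tracked gene span. Treated A2780 cells had a median log2 fold change of 0.23 for the 29 members that span less than 10 kb, 0.02 for 92 of 10 to 30 kb, -0.25 for 71 of 30 to 100 kb and -0.57 for 14 over 100 kb. All tested genes gave 0.21, 0.09, -0.15 and -0.40 in the same classes. Of the 14 longest members, which include ZNF521, ZNF827, ZNF609, ZNF638, ZNF704 and ZNF804A, 13 were lower in A2780 (92.9%, against 68.3% of all tested genes of that span) and 9 in Acis (64.3%, against 41.3%), and none was higher. In Acis the medians were 0.06, 0.12, 0.05 and -0.31 for members and 0.09, 0.07, -0.02 and -0.18 for all tested genes. Median spans were similar, at 25926 bases for members and 24251 for all tested genes, but the extremes differed. Of 206 members, 29 were under 10 kb and 14 over 100 kb. Among the 15708 tested genes with a position, these numbers were 4886 and 2621, larger shares at both ends. The backgrounds over all tested genes are therefore not matched for span. Among KRAB members of 30 to 100 kb, 26 of 56 were lower in A2780 (46.4%, near the 44.1% of all tested genes of that span) and 3 in Acis (5.36%, against 13.5%).

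**Figure D4:**
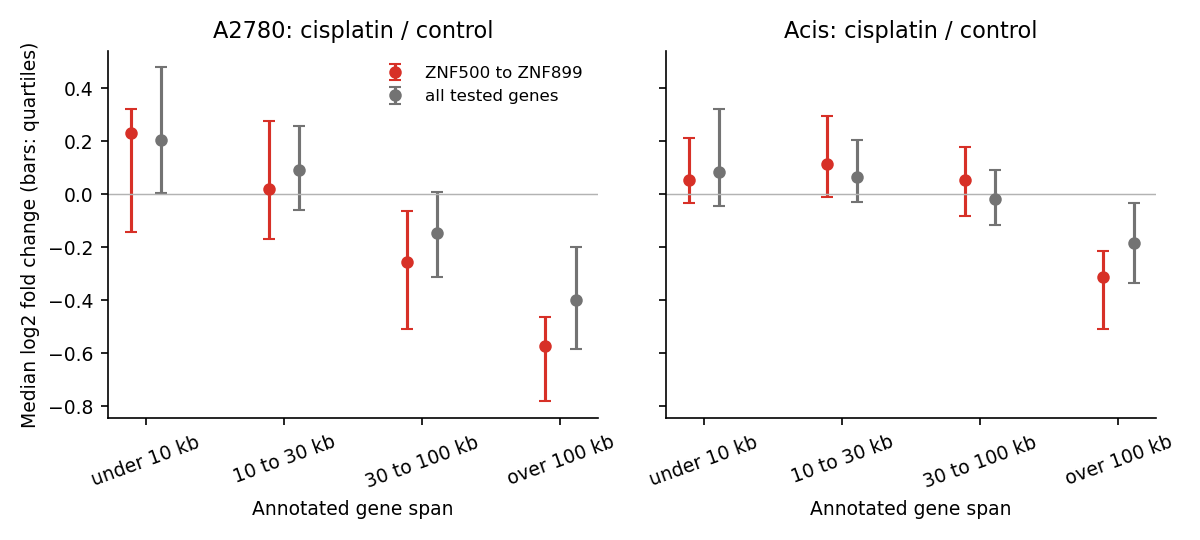
Medians of the log2 fold change for cisplatin against control in A2780 (left) and Acis (right) for members and for all tested genes in 4 classes of annotated gene span, with bars from the first to the third quartile. In A2780 the medians fall from class to class in both sets, from 0.23 to -0.57 in members, while in Acis the member medians are 0.06, 0.12 and 0.05 up to 100 kb and -0.31 above it.

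Members with known roles outside KRAB repression were read from a list of 19, of which 18 were analysed. ZNF598, the ribosome collision sensor, was higher in Acis control than in A2780 control (994 ± 50.3 and 768 ± 18.5 normalized counts, SD, n = 3, log2 fold change 0.37 ± 0.05 SE, adjusted p = 6.95e-08), and ZNF622 did not pass the test between the untreated lines (261 and 262). ZNF644, a partner of the G9a and GLP methyltransferases, fell from 888, 904 and 934 in A2780 control to 423, 438 and 467 in Acis control (-1.04 ± 0.05, adjusted p = 3.21e-16), and cisplatin lowered it in both lines (-0.59 in A2780 and -0.29 in Acis). ZNF638, which takes part in silencing of unintegrated retroviral DNA, was among the most abundant members, and cisplatin lowered its mean in A2780 (1484 untreated, 1086 treated) and in Acis (1382 and 1187). ZNF652, a co-repressor partner of the ETO family, fell by 0.55 in A2780 after cisplatin, with -0.10 ± 0.05 in Acis.

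ZNF687 and ZNF592, which work in one complex with ZMYND8, behaved differently. After cisplatin in A2780, ZNF592 fell by 0.28, while ZNF687 rose by 0.12 (adjusted p = 0.0445). ZNF692 was higher in Acis control (485 and 359, log2 fold change 0.43 ± 0.06) and rose by 0.24 in A2780 after cisplatin. ZNF711, an X-linked gene of intellectual disability, was lower in Acis control (197 and 242, -0.30 ± 0.08) and did not pass the test after cisplatin in either line. ZNF746, the parkin substrate PARIS, passed the test between the treated lines alone (-0.14 ± 0.06, adjusted p = 0.0374). ZNF668 and ZNF830, both tied to the DNA damage response, rose in A2780 (0.30 ± 0.07 and 0.43 ± 0.08) and did not pass the test in Acis.

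The co-repressors that KRAB proteins recruit, and proteins that silence the same loci, were read as a list of 36 genes of which 35 were tested. Between the untreated lines, 17 were lower in Acis and 3 higher, against backgrounds of 30.6% and 28.2% of all tested genes, with a median log2 fold change of -0.12 and none past 2-fold. The DNA methyltransferases DNMT3B (-0.95 ± 0.07 SE, mean normalized counts 396 and 205) and DNMT3A (-0.90 ± 0.07, 578 and 309), the TRIM28 relative TRIM33 (-0.87 ± 0.04) and the HP1 protein CBX5 (-0.71 ± 0.03, 2997 and 1839) fell most, followed by MTA3 (-0.54 ± 0.06). MTA2 rose (0.34 ± 0.03). TRIM28 itself and SETDB1 did not pass the test between the untreated lines.

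Cisplatin lowered 18 of the 35 co-repressor genes in A2780 and raised 6, and lowered 12 in Acis and raised none. The backgrounds were 28.2% lower and 21.2% higher in A2780, and 12.4% and 9.35% in Acis. In A2780 the chromatin remodeler ATRX (-0.77 ± 0.04 SE, from 1432 to 837), TRIM33 (-0.57 ± 0.04), the HUSH subunit TASOR (-0.56 ± 0.05) and the SETDB1 partner ATF7IP (-0.46 ± 0.05) fell. In Acis the methyltransferase EHMT1 fell most (-0.57 ± 0.05, from 835 to 562), followed by DNMT3A (-0.36 ± 0.08), ATRX (-0.31 ± 0.04) and TRIM33 (-0.29 ± 0.05). The difference of responses was positive for 7 genes and negative for 2. It was positive for ATRX (0.46 ± 0.06), SMARCAD1 (0.43 ± 0.07), TASOR (0.38 ± 0.07), CBX5 (0.29 ± 0.04), TRIM33 (0.28 ± 0.06), ATF7IP (0.28 ± 0.07) and TRIM24 (0.27 ± 0.08), which all fell in A2780. It was negative for SUV39H1 (-0.32 ± 0.09, adjusted p = 0.0187) and MTA2 (-0.18 ± 0.05, adjusted p = 0.00886), which rose in A2780 and did not pass the test in Acis.

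**Figure D5:**
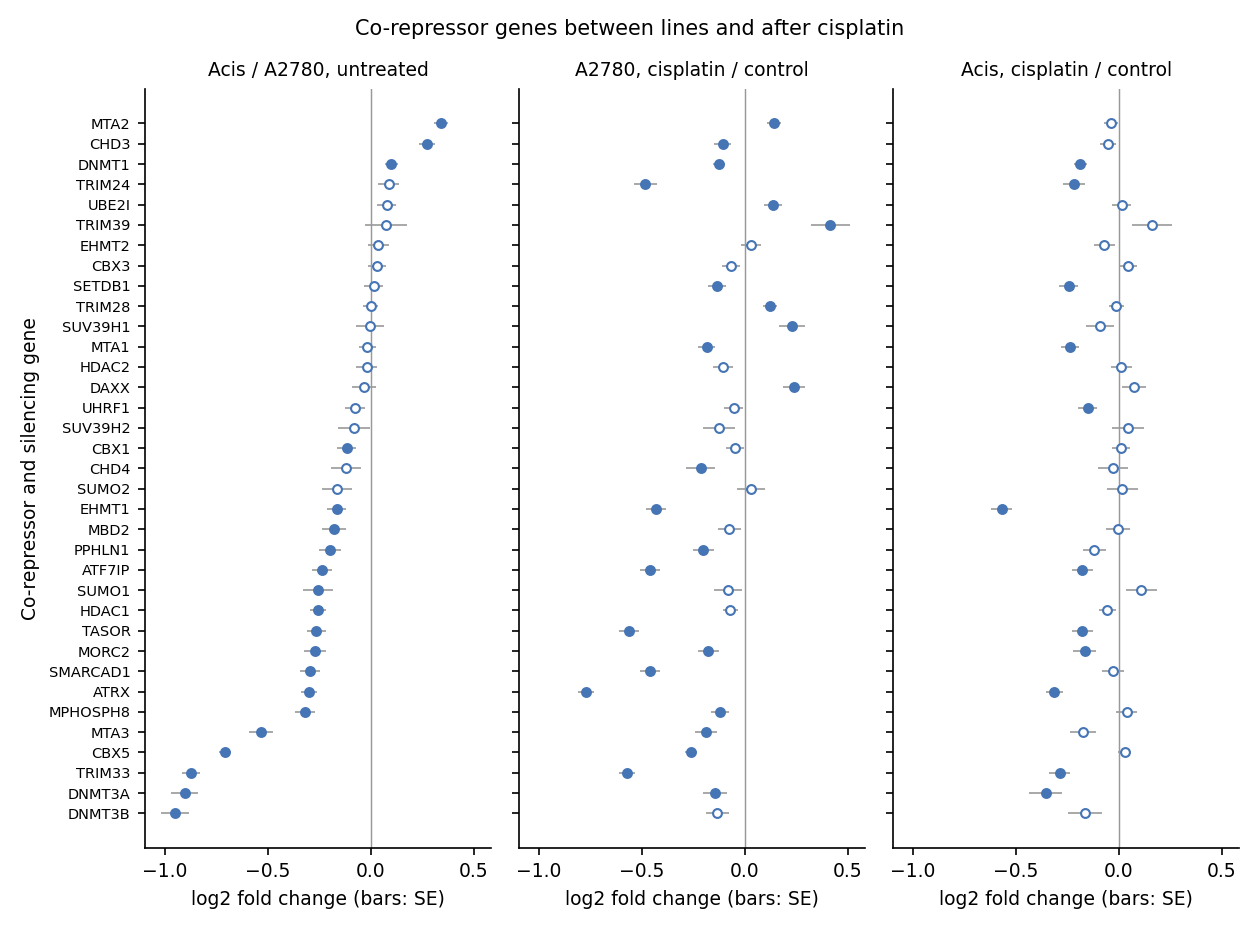
Log2 fold change and its SE for 35 co-repressor and silencing genes between the untreated lines (left) and after cisplatin in A2780 (middle) and Acis (right), with filled points at adjusted p below 0.05. DNMT3B, DNMT3A, TRIM33 and CBX5 are lowest in Acis, and ATRX and TRIM33 are lower after cisplatin in both lines.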

How the data were processed

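RNA-seq libraries were rRNA-depleted, stranded and single-end. The authors aligned reads with STAR 2.7.3 to hg38, removed PCR duplicates with Picard, and deposited raw read counts per gene made with HTSeq 0.11.1 on the reverse strand, in a table whose rows hold at least 10 reads in total. For ATAC-seq the authors aligned reads with Bowtie2 2.4.1 and deposited 1 MACS2 peak list per condition, from 3 control or 2 cisplatin replicates, with regions kept where replicates overlapped. The deposited columns hold the fold enrichment over local background, the −log10 p and q, and a peak score that was not used. XR-seq samples were not analysed here.

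Members were found by symbol. The members and gene lists were chosen with earlier results of these data known. Genes passing edgeR's default filter on low counts (15760) were fitted in one model of 4 groups with TMM factors (edgeR 4.0.16, R 4.3.3, quasi-likelihood test, 8 residual degrees of freedom), with Benjamini-Hochberg adjustment over all of them. The fit was tested on simulated data. Normalized counts are counts scaled to the mean library size. Calls had an adjusted p below 0.05, and where stated at least 2-fold. Named between the untreated lines were the 10 largest changes in each direction, and for each cisplatin comparison and the difference of responses the 6 largest, among called members whose higher group averaged 20 or more normalized counts. Except for the difference, groups also had to be free of overlap. Members past 2-fold after cisplatin, those with a start-site peak in one line, the 5 highest per kb of exon and members with known roles were named as well. ZNF626 and the chromosome 19 windows were chosen after values were seen.

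Gene positions came from GENCODE 44, and promoters from the RefSeq table of GRCh38.p14. Domains were planned from a protein table that was not used here, and were read from translated GENCODE coding sequences instead. Promoters were aligned with Biopython 1.88. Counts of 0 were given a limit of 3 counts over the 3 libraries of a group. Deviations of same-numbered replicates correlated at -0.18 to 0.25 between groups, so replicate numbers were not taken as pairs. The spread between replicates was 0.731 to 1.53 times that of counting noise, and all 3 were kept per group. Alternatives were DESeq2 1.42.0, its size factors, total counts as library size, no filter and a mean of at least 50 counts. Others were a replicate block, fits of the compared groups alone, each library left out and other peak settings. The closest replicates were also summed, in every group except A2780 control.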

Additional observations from a re-analysis of the deposited data

Results flagged for a closer look

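For 12 members the cisplatin response differed between the lines by the test of the difference itself (Acis minus A2780, log2). The difference was positive for ZNF730 (1.00), ZNF519 (0.99), ZNF681 (0.98), ZNF606 (0.83), ZNF767P (0.77) and ZNF675 (0.76). It was negative for ZNF764 (-0.56), ZNF689 (-0.51), ZNF574 (-0.45), ZNF668 (-0.41), ZNF581 (-0.38) and ZNF830 (-0.37). These are the 6 largest in each direction of the members called.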

How the results depend on the processing

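Of the values recomputed for named genes, 1108 of 1116 stayed on the same side of the threshold with the same direction, 8 missed it and none reversed. Those 8 concerned ZNF843, ZNF784, ZNF624 and ZNF830, whose difference of responses had an adjusted p of 0.10 with DESeq2. With DESeq2, members called higher after cisplatin numbered 23 in A2780 and 11 in Acis, those higher at least 2-fold in A2780 numbered 2, and the difference of responses was called for 25 and 5. With total counts as library size, 63 and 42 members were higher after cisplatin in A2780 and Acis, and 17 had a negative difference. With a mean of at least 50 counts, which tests fewer genes, 1 and 0 members were at least 2-fold higher after cisplatin in A2780 and Acis, 24 and 17 were at least 2-fold lower in Acis in untreated and treated cells, and 17 had a negative difference. The causes were otherwise not tested. A start-site peak in both Acis lists alone was found for 2 members with a window of 1000 bases, 4 with a −log10 q of at least 20 and 3 among the top 20000 peaks.

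With each library left out in turn, A2780 cisplatin gave 32 to 40 higher, 66 to 73 lower and 3 to 4 at least 2-fold higher (3 without A2780 cisplatin replicate 3 or A2780 control replicate 3). Acis cisplatin gave 19 to 27 higher, 15 to 21 lower and 1 to 3 at least 2-fold higher (1 without Acis cisplatin replicate 3). The untreated lines gave 29 to 34 higher and 99 to 110 lower, the treated lines 40 to 46 and 74 to 87, and the difference of responses 34 to 51 positive and 6 to 12 negative. With the replicate block, the calls were 42 and 72 in A2780, 24 and 20 in Acis, 34 and 110 between untreated lines, 48 and 85 between treated lines, and 48 and 10 for the difference, so the pairing of numbers moved no count by more than 1.5 times. At 4130644 reads or more per library, 15 members could not be tested.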
